A study of Mus musculus with 7 samples.

Results

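Interferon-stimulated genes are the genes that cells switch on after interferons bind their receptors. Here 41 of them, from transcription factors to antiviral effectors, were followed in macrophages sorted from mouse brain. A gene was included when a probe set of the array carried its symbol and no other, and where several did, the one with the highest mean log2 signal stood for it. This gave 39 genes of the 18193 with such a probe set. Isg15 and Ifi44 had no probe set carrying their symbol alone and are not analysed here. The groups were macrophages from normal brain of C57/Bl6 mice 8 weeks old (3 arrays) and macrophages from GL261 tumours in C57/Bl6 mice (4 arrays). GL261 is a mouse glioma cell line, injected into the brain of mice that had been given GFP-labelled bone marrow, and the tumours had grown for 21 days. All cells were taken by GFP and the macrophage protein F4/80 after papain digestion. Whether the mice without tumours had labelled marrow too is not stated in the labels, nor is whether arrays came from separate mice, so p-values measure only the spread between these arrays.

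Type I interferons signal through the receptor chains Ifnar1 and Ifnar2 and the kinases Jak1 and Tyk2 to a complex of STAT proteins and Irf9, which binds the interferon-stimulated response element in promoters. Interferon gamma signals through Ifngr1 and Ifngr2 to a different STAT complex that binds the gamma-activated site, and many genes answer to both. In brain macrophages the programme is known from viral infection, injury, ageing and tumours.

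The response element is visible in the promoters of members that were called higher and of members that were not called, so a few are shown beside each other. RefSeq promoter windows (GRCm38.p6, 250 bases before to 50 after a transcript start) were matched by symbol for 29 of the 39 genes. The response element was searched as GAAA, 2 bases of any kind and GAAA again, and the gamma-activated site as TTC, 3 bases of any kind and GAA, on both strands with overlapping matches counted. Shown 5′ to 3′ on the gene's strand are stretches upstream of the start, with response element matches in capitals. The first set is from genes called higher in GL261, namely Ifit1 (chr19:34640760-34640838, plus strand), Ifit3 (chr19:34583348-34583441, plus strand) and Stat2 (chr10:128270251-128270310, plus strand).
Ifit1: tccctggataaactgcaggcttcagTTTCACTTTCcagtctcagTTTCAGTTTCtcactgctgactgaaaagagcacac
Ifit3: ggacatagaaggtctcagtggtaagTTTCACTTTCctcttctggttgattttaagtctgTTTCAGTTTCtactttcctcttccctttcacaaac
Stat2: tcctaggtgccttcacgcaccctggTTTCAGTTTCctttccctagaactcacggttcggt

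The second set is from genes that were not called, Rsad2 (chr12:26456538-26456597, minus strand), Oas3 (chr5:120777700-120777759, minus strand) and Oas1a (chr5:120907526-120907570, minus strand). All 3 had positive differences. Of the other uncalled members with a match in a window, Ifih1 and Eif2ak2 also had positive differences (both 0.79). Bst2 (-0.28), Trim30a (-0.10) and Ifitm3 (-0.29) had negative ones.
Rsad2: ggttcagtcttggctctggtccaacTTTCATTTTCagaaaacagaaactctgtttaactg
Oas3: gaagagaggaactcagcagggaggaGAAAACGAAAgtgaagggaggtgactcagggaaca
Oas1a: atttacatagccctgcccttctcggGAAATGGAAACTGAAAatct

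Ifit1 and Ifit3 each held 2 separate matches upstream of the start, and those of Oas1a overlap each other. Of the 29 members with a window, 11 (37.9%) held the response element letters, against 3.99% of all 27025 genes with one. The gamma-activated site letters were in 10 members (34.5%), against 9.55% of all genes. The response element letters were in 3 of the 7 called members with a window and in 8 of the 22 that were not called, so they did not separate these sets. The gamma-activated site letters were in 1 of those 7 and in 9 of those 22, a difference that was not tested. A match is a description of letters and not a binding site.

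The comparison asked how expression in macrophages of this glioma differs from that in macrophages of normal brain. Of these 39 genes, 10 were higher in the GL261 macrophages, 0 were lower and 29 were not called (limma, adjusted p under 0.05 over all 12125 genes tested). They were the transcription factors Irf7 and Stat2, the nucleic acid sensor Zbp1, the OAS-like gene Oasl1, all 3 Ifit genes, Rtp4, Parp9 and Lgals3bp, with 1.63-fold to 3.19-fold differences. That is 25.6% of the members, beside 5.92% of all genes tested called higher, 4.2% called lower and 10.1% called in either direction. With weaker genes removed by a filter at the 60th percentile, 12 members and 7.21% of all genes tested were called higher. Shares among genes of like signal level were not compared. The median log2 difference of the members was 0.46 and that of all genes tested 0.04, and 30 of the 39 had a positive difference. All GL261 arrays lay above all normal brain arrays for 17 members (13.1% of all genes tested) and below for 0 (10.4%). At an unadjusted p under 0.05, 21 members were higher and 0 lower, but the share of all genes at that threshold was not counted. The lists were chosen with results of these data known, so these counts describe the members and are no test of the set.

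**Figure D1:**
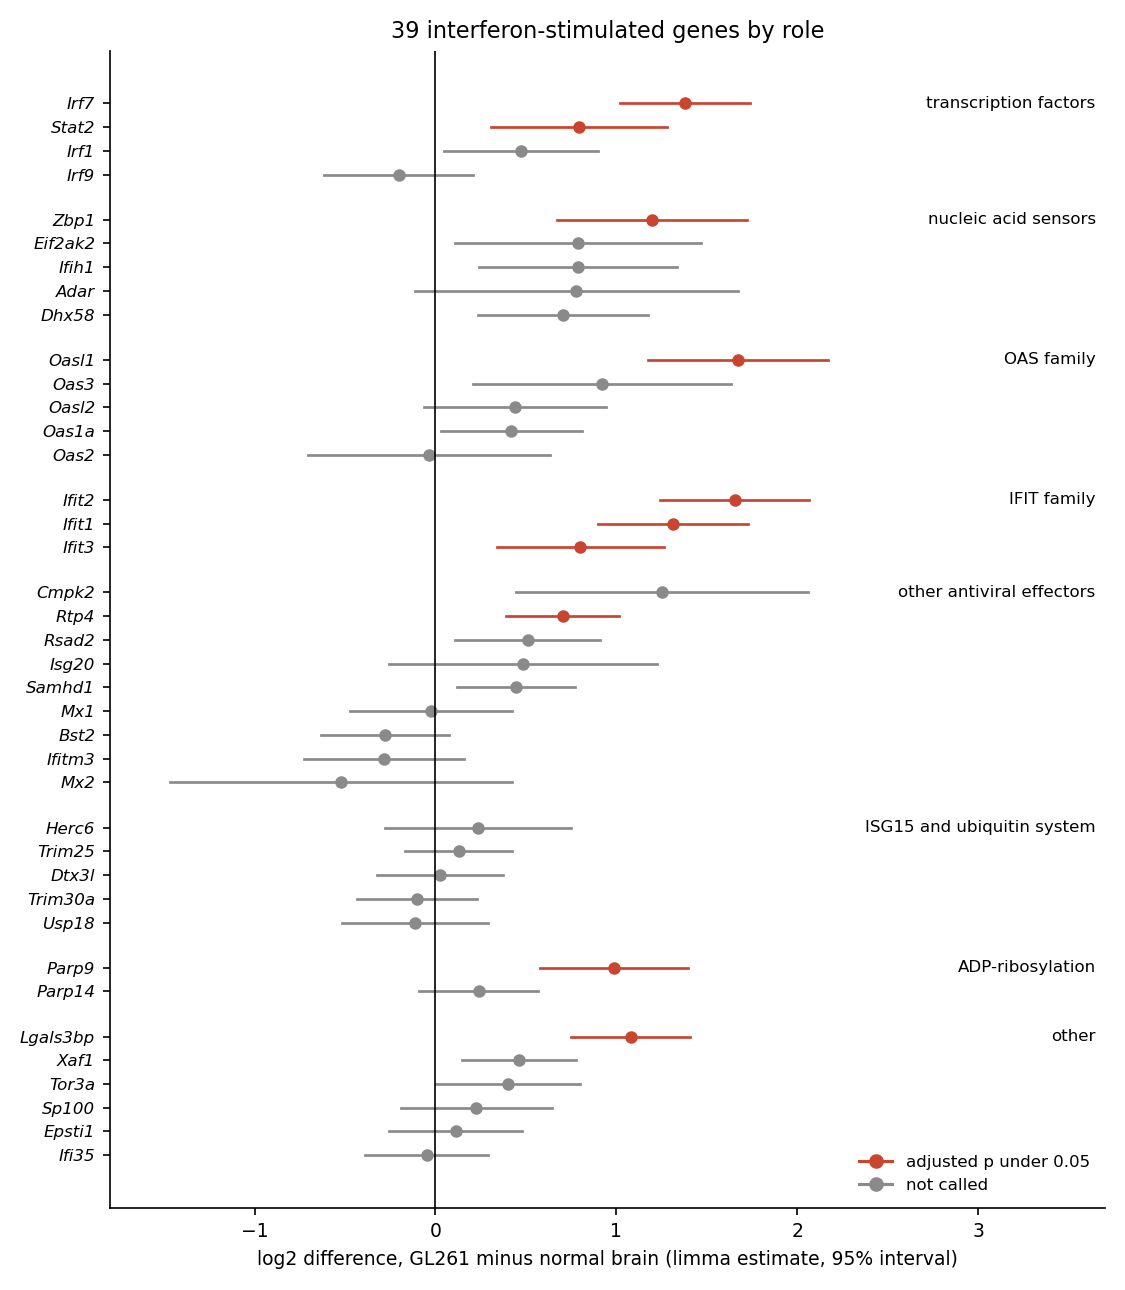
Log2 difference between GL261 (4 arrays) and normal brain (3 arrays) for the 39 genes, grouped by role, with points as limma estimates, lines as 95% intervals and red for an adjusted p under 0.05. The 3 Ifit genes are all red, and the 5 genes of the ubiquitin group are grey and lie near 0.

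The arrays differed in other ways that move with the groups. The 3' over 5' signal ratio of Gapdh, which rises when RNA is degraded, was 2.41 ± 0.0243 (SD, n = 3) on the normal brain arrays and 1.75 ± 0.127 (SD, n = 4) on the GL261 arrays (two-sided exact permutation p = 0.0286, the smallest that 35 splits allow). The same ratio of actin was 1.43 to 1.64 in normal brain and 1.36 to 1.52 in GL261, with overlap (exact permutation p = 0.143). Of the T and NK cell markers 5 of 11 tested were called higher, and their summed signal was 5971 to 6680 in normal brain and 8657 to 15983 in GL261. Called lower were 4 of 4 B cell markers (summed signal 4002 to 5133 against 660 to 1303) and 6 of 6 neutrophil markers (39599 to 50865 against 16416 to 22805). Of the markers of oligodendrocyte precursors, a type that gliomas resemble, 3 of 4 tested were called higher (84.7 to 245 against 678 to 1302), with Olig2 at background on all normal brain arrays. Of the other lists, 2 of 5 pericyte and fibroblast markers were called higher, 2 of 5 endothelial and 2 of 2 erythroid markers lower, and 0 of 5 astrocyte and neuron markers either way. Of 7 markers of plasmacytoid dendritic cells, the strongest producers of type I interferon, which include Bst2, 0 were called higher and 2 lower (15660 to 20526 against 12201 to 15173). Most of that sum came from Bst2 (means 9007 and 7449) and Tcf4 (6760 and 5141), both uncalled. Ccr9, Pacsin1 and Klk1 had positive differences that were not called (2.24, 1.57 and 0.22). All 8 macrophage and microglia markers were above background on every array. Called lower were 3 of them, Cx3cr1 (-0.71), P2ry12 (-1.28) and Tmem119 (-0.61), and 0 were called higher. Their summed signal was 47216 to 58077 in normal brain and 37937 to 48879 in GL261. The part of these differences in the results on the members was not tested, and fewer cells of a type cannot be told apart from less RNA per cell.

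Of the transcription factors, Irf7 and Stat2 rose and Irf1 and Irf9 were not called. Irf7 amplifies interferon production once its own transcription has been induced. Its signals, the linear MAS5 intensities, were 1906, 1672 and 1398 in normal brain and 3616, 4817, 4709 and 4133 in GL261. Every GL261 value was above every normal brain value, and the log2 difference was 1.38 (SE 0.16, adjusted p = 0.00069 by limma). Stat2 carries the transcription-activating domain of the type I interferon complex. It stood at 636, 702 and 480 in normal brain and at 1053, 1203, 993 and 942 in GL261, again without overlap. Its log2 difference was 0.80 (SE 0.22, adjusted p = 0.0433). Leaving out any array but normal brain replicate 2 ended the Stat2 call. Its adjusted p was 0.0609 or 0.103 when normal brain replicate 1 or 3 was dropped, and 0.101, 0.106, 0.101 or 0.0757 when GL261 replicate 1, 2, 3 or 4 was. The call was also lost in 6 of the other alternatives (adjusted p = 0.0548 to 0.141). A weaker probe set of Stat2 had a log2 difference of 0.41 (adjusted p = 0.579 over all probe sets).

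Irf9, the DNA-binding partner of Stat2, was at 1710, 2613 and 1815 in normal brain and at 1580, 2032, 1580 and 1831 in GL261, with overlap. Its log2 difference was -0.20 with a 95% interval of -0.61 to 0.21. Irf1, which responds most to interferon gamma, was at 3521, 3561 and 2565 in normal brain and at 4321, 3284, 5608 and 4782 in GL261. GL261 replicate 2 fell among the normal brain arrays, and the difference of 0.47 was not called (adjusted p = 0.149).

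**Figure D2:**
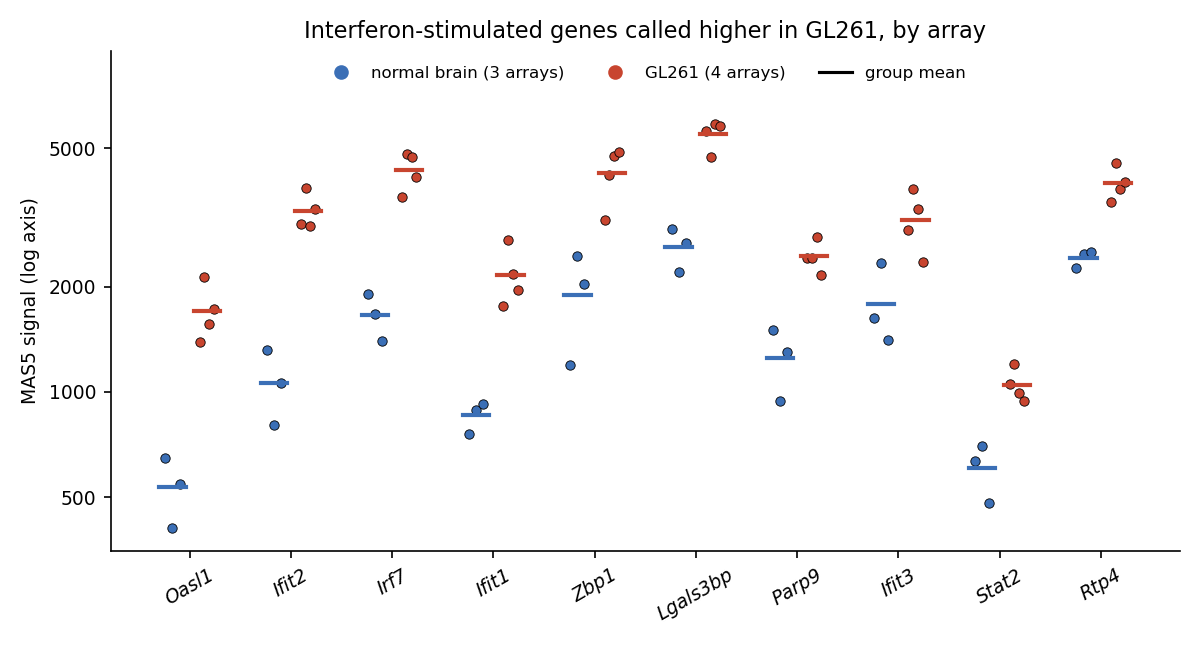
MAS5 signal on a log axis for the 10 genes called higher, with each point an array, blue for normal brain (3), red for GL261 (4) and bars for group means. In all 10 genes the lowest GL261 point lies above the highest normal brain point, by the least for Ifit3 (2356 against 2335).

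The IFIT proteins bind viral RNA ends and block its translation, and these genes are among the strongest responders to type I interferon. All 3 were called higher. Ifit2 was at 1321, 804 and 1059 in normal brain and at 3037, 3832, 2981 and 3350 in GL261. The groups lay far apart, with a 3.15-fold difference (log2 1.65, SE 0.19, adjusted p = 0.000503 by limma). Ifit1 was at 758, 886 and 927 in normal brain and at 1766, 2727, 2181 and 1963 in GL261. This was a 2.49-fold difference (log2 1.31, SE 0.19, adjusted p = 0.00218), and GL261 replicate 2 was the highest array for both genes. Ifit3 was at 1629, 2335 and 1414 in normal brain and at 2910, 3808, 3350 and 2356 in GL261. The lowest GL261 array all but met the highest normal brain array, and the log2 difference was 0.80 (SE 0.21, adjusted p = 0.0341). The Ifit3 call was lost when normal brain replicate 1 or 3 was dropped (adjusted p = 0.082 or 0.101) and when GL261 replicate 1, 2 or 3 was (0.0684, 0.0789 or 0.0974). It was also lost with no filter on low values, median centring, the mean of all probe sets or no variance trend (0.0508 to 0.118).

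The OAS enzymes make 2',5'-linked oligoadenylates when they bind double-stranded RNA. In this family 1 of 5 genes was called. Oasl1, a member without that enzyme activity that is known to restrain Irf7 translation, had signals of 646, 408 and 545 in normal brain and 1393, 2130, 1569 and 1724 in GL261. The lowest GL261 array was well above the highest normal brain array, and the 3.19-fold difference (log2 1.67, SE 0.23, adjusted p = 0.00146) was the largest of the 39 genes. Oas3 was at 1327, 1651 and 659 in normal brain and at 1709, 3642, 1862 and 1824 in GL261. The groups did not overlap but GL261 replicate 2 stood far above the rest, and the difference of 0.92 was not called (adjusted p = 0.0956). Oas1a had a log2 difference of 0.42 (adjusted p = 0.16) and Oasl2 one of 0.44 (adjusted p = 0.253, or 0.0338 without normal brain replicate 2). Oas2 was at 1067, 870 and 827 in normal brain and at 882, 1636, 712 and 619 in GL261. Its GL261 arrays lay on both sides of the normal brain arrays, at a difference of -0.04 with a 95% interval of -0.71 to 0.64.

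Of the 5 nucleic acid sensors 1 was called and all had positive differences of 0.71 to 1.20. Zbp1, which senses Z-form nucleic acid and can trigger necroptosis, was at 1196, 2456 and 2032 in normal brain and at 3111, 4194, 4738 and 4880 in GL261. Its log2 difference was 1.20 (SE 0.24, adjusted p = 0.011), and a second probe set was called too (0.77, adjusted p = 0.0438 over all probe sets). Ifih1, the long double-stranded RNA sensor MDA5, was at 1216, 2226 and 908 in normal brain and at 2304, 2527, 2256 and 2265 in GL261. The 4 GL261 arrays were close together and above the widely spread normal brain arrays, without a call (0.79, adjusted p = 0.0688, or 0.00639 without normal brain replicate 2). Dhx58, a regulator of such sensors also called LGP2, had a difference of 0.71 (adjusted p = 0.0582, or 0.0388 without GL261 replicate 4 and 0.0484 with the filter at the 60th percentile). Eif2ak2, the kinase PKR that stops translation, was at 692, 402 and 928 in normal brain and at 855, 1609, 1178 and 920 in GL261. These groups overlapped (0.79, adjusted p = 0.131). Adar, the RNA-editing enzyme that hides cellular double-stranded RNA from Ifih1, had a difference of 0.78 that was not called (adjusted p = 0.253). The normal brain values of Adar ran from 193 to 818, wider than those in GL261 (634 to 871).

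**Figure D3:**
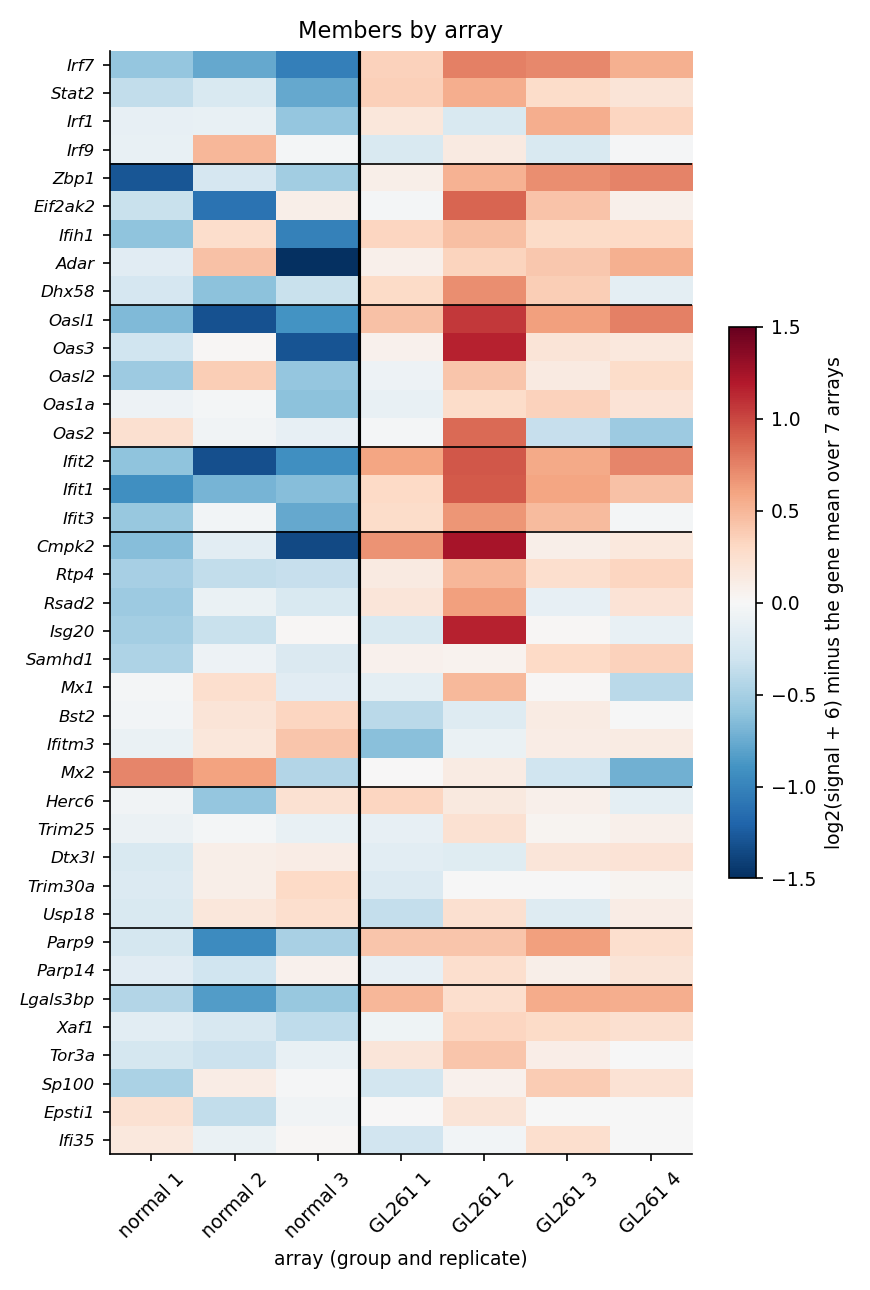
Log2(signal + 6) of each gene on each array minus the gene's mean over the 7 arrays, rows grouped by role and columns by group and replicate, red above and blue below the mean. Within GL261, replicate 2 is the reddest in the Ifit rows and in the OAS rows apart from Oas1a, and it is the highest GL261 array for 25 of the 39 genes.

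Among 9 other antiviral effectors 1 was called, and these were the members that differed most in direction. Rtp4, a Golgi chaperone of G protein-coupled receptors that also inhibits viral replication, was at 2266, 2489 and 2520 in normal brain and at 3514, 4534, 3820 and 4005 in GL261. The groups did not overlap, and the 1.63-fold difference was called (log2 0.70, SE 0.14, adjusted p = 0.0116). With each array centred on its median the call was lost (adjusted p = 0.0879), as it was without the variance trend (0.0667). Cmpk2, a mitochondrial nucleotide kinase whose gene neighbours Rsad2, was at 346, 488 and 210 in normal brain and at 871, 1285, 580 and 606 in GL261. Its groups did not overlap either, but their spread was wide and the difference of 1.25 missed the threshold (adjusted p = 0.052). It was called without normal brain replicate 2 (0.0358) and with quantile normalization (0.0383), the filter at the 60th percentile (0.0466) or median centring (0.0489). Rsad2 (viperin), which makes a chain-terminating nucleotide, had a difference of 0.51 (adjusted p = 0.101) with the highest value, 6563, in GL261 replicate 2. Samhd1, which depletes the nucleotides that reverse transcription needs, had a difference of 0.44 in the probe set that stood for it (adjusted p = 0.0821, or 0.00415 with quantile normalization). Another Samhd1 probe set of the 5 was called higher (0.58, adjusted p = 0.0366 over all probe sets). Isg20, an RNA exonuclease, was at 1537 in GL261 replicate 2 and at 581 to 692 on the other GL261 arrays, beside 478 to 695 in normal brain.

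The membrane effectors and the Mx genes did not share the increase. Ifitm3, which blocks virus entry at endosomes, was at 12592, 15154 and 18065 in normal brain and at 8718, 12568, 14614 and 14731 in GL261. The groups overlapped over most of their range, at a log2 difference of -0.29 with a 95% interval of -0.73 to 0.16. Bst2 (tetherin), which holds budding virus at the cell surface, was at 7793, 9180 and 10048 in normal brain and at 6076, 7030, 8725 and 7966 in GL261. Its difference was -0.28 (interval -0.63 to 0.07), also with overlap. Mx1, a dynamin-like GTPase, was at 2802, 3390 and 2536 in normal brain and at 2582, 4011, 2891 and 2155 in GL261, a difference of -0.03 (interval -0.47 to 0.42). Mx2 had the lowest difference of all members, -0.52 (interval -1.47 to 0.42), at 420, 383 and 182 in normal brain and 250, 272, 202 and 149 in GL261. No call was made for any of these 4 genes, and their intervals end at 0.42 or lower, short of the more than 2-fold differences of Irf7, Ifit1 and Ifit2.

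The 5 ubiquitin system genes with a probe set held 0 calls, beside 5.92% of all genes tested called higher. A count of 0 in 5 genes is near that share, so it does not set this group apart. Usp18, which strips Isg15 from proteins and blocks signalling at Ifnar2, was at 2509, 3328 and 3501 in normal brain and at 2301, 3484, 2583 and 3180 in GL261. Its groups overlapped fully, at a log2 difference of -0.11 with an interval of -0.52 to 0.29. The ubiquitin ligase genes Trim25 (0.13), Dtx3l (0.03) and Herc6 (0.23) and the family member Trim30a (-0.10) had intervals that all included 0, from -0.43 to 0.75 at the widest. Their weaker probe sets were at 1.18, 0.84 and 0.49 for Herc6, 0.25 and 0.59 for Trim25, 0.11 for Trim30a and -0.17 for Dtx3l. None of these was called (limma adjusted p = 0.0983 to 0.748 over all probe sets). Dtx3l and Parp9 proteins form a complex that aids interferon responses, and their genes differed in call. Parp9, of the ADP-ribosyltransferase family, was at 1507, 944 and 1298 in normal brain and at 2424, 2417, 2787 and 2166 in GL261. Its arrays separated cleanly with a 1.98-fold difference (log2 0.99, SE 0.19, adjusted p = 0.0086), while Dtx3l ran from 4875 to 6175 in normal brain and from 5049 to 6616 in GL261. Parp14, a related enzyme, had a difference of 0.24 (adjusted p = 0.342).

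Of the remaining 6 genes Lgals3bp was called. It encodes a secreted glycoprotein that binds galectin-3, and it stood at 2924, 2211 and 2665 in normal brain and at 5592, 4704, 5847 and 5782 in GL261. Every GL261 array was above every normal brain array, with a 2.11-fold difference (log2 1.08, SE 0.15, adjusted p = 0.00165), and GL261 replicate 2 was the lowest of its group here. Xaf1, a pro-apoptotic partner of XIAP, was separated but not called (0.46, adjusted p = 0.065, or 0.0261 with quantile normalization), as was Tor3a, an endoplasmic reticulum ATPase (0.40, adjusted p = 0.186). Sp100, a nuclear body protein, had a difference of 0.23 (adjusted p = 0.49) in the probe set that stood for it. Its other, weaker probe set was at 1.65 (adjusted p = 0.0744 over all probe sets), and the mean of both was called higher (0.94, adjusted p = 0.0192). Epsti1 had a difference of 0.11 (adjusted p = 0.714). Ifi35, at 10204, 8529 and 9217 in normal brain and 7469, 8861, 10888 and 9057 in GL261, differed by -0.05 with an interval of -0.39 to 0.29. The normal brain range of Ifi35 lay wholly inside the GL261 range.

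**Figure D4:**
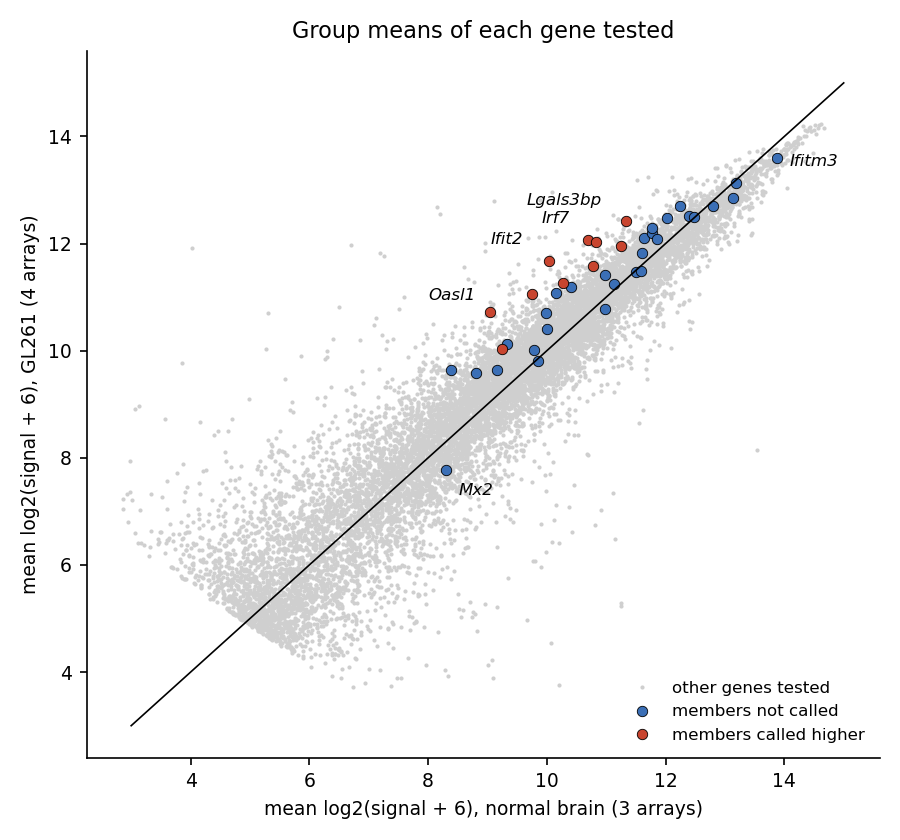
Mean log2(signal + 6) in normal brain (3 arrays, horizontal) against GL261 (4 arrays, vertical) for all 12125 genes tested, with members not called in blue, members called higher in red, and a line of equal means. The called genes lie above the line, and Ifitm3 and Mx2 lie below it.

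The called members differed in how firmly they stood. Of the 10, 8 were called in every fit without 1 array, and 8 to 13 members were called across those fits. The exceptions were Stat2 and Ifit3. With variances that do not follow the mean signal 5 members were called, namely Irf7, Oasl1, Ifit1, Ifit2 and Lgals3bp, which were also called in all 18 alternative settings. Of the 39 genes, 19 had more than 1 probe set, and of the 32 other probe sets tested 2 were called higher and 0 lower.

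The GL261 arrays did not carry the members evenly. GL261 replicate 2 was the highest GL261 array for 25 of 39 members (64.1%), and for 24.5% of all genes tested. GL261 replicate 1 was the lowest for 20 members, and for 21.3% of all genes. The median deviation of the members from their 7-array means was 0.41 on GL261 replicate 2, 0.06 on replicate 1, 0.25 on replicate 3 and 0.19 on replicate 4, and -0.34 to -0.10 on the normal brain arrays. Over all genes tested the median deviation of every array was between -0.04 and 0.08. Without GL261 replicate 2 the members' median difference was 0.39 and 8 were called higher. Marker sums of other cells also set this array apart from the other GL261 arrays. It was at 4439 for the erythroid list (68.0 to 194 on the others), 1569 for the endothelial list (436 to 669), 1303 for the B cell list (660 to 872), 1302 for oligodendrocyte precursors (678 to 985) and 2917 for pericytes and fibroblasts (1690.2 to 2302). It was lowest for the T and NK cell list, at 8657 (12062 to 15983). The part of these cells in the members' values on this array was not tested.

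Of the interferon ligands upstream of these genes none was called. Of 10 interferon ligand genes with a probe set, 7 alpha-type genes were left out by the filter on low values and 3 were tested. Ifnb1, the interferon beta gene, was at 131, 109 and 48.5 in normal brain and at 59.1, 61.6, 13.4 and 58.5 in GL261, a log2 difference of -0.97 that was not called (adjusted p = 0.339). Its GL261 replicate 3 was below the level of the array's unspiked bacterial controls. Ifng, made by T and NK cells, was at 511, 592 and 373 in normal brain and at 345, 196, 470 and 216 in GL261. These ranges overlapped, at -0.73 (adjusted p = 0.258). Ifnz, a type I gene of mouse, was not called at -1.58 (adjusted p = 0.159).

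Of 10 receptor and JAK-STAT genes tested 0 were called higher and 1 lower, beside 5.92% and 4.2% of all genes tested. Ifnar1, a chain of the type I interferon receptor, was at 2949, 3163 and 3185 in normal brain and at 2027, 2457, 2258 and 1929 in GL261. All GL261 arrays were lower, and the log2 difference was -0.52 (SE 0.15, adjusted p = 0.0446 by limma). That call held when GL261 replicate 2 was dropped (adjusted p = 0.0445). It was lost when normal brain replicate 1, 2 or 3 (0.0653, 0.0968 or 0.097) or GL261 replicate 1, 3 or 4 (0.105, 0.0903 or 0.105) was. It was also lost in 6 of the other alternatives (adjusted p = 0.0661 to 0.388). The partner chain Ifnar2 had a difference of -0.16 (adjusted p = 0.567). The interferon gamma receptor chains Ifngr1 (-0.01, interval -0.32 to 0.31) and Ifngr2 (0.04, interval -0.36 to 0.43) lay near 0. Stat3, which carries interleukin signals, was separated upward but not called (0.57, adjusted p = 0.0594, or 0.0461 with the filter at the 60th percentile).

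Of 14 sensors, adapters and upstream factors 1 was called higher and 0 lower. The called share of 7.14% is near the 5.92% of all genes tested called higher. Ikbke, a kinase that activates Irf3 and Irf7, was at 347, 253 and 85.1 in normal brain and at 1339, 618, 980 and 934 in GL261. It was higher on every GL261 array, with a log2 difference of 2.21 (SE 0.45, adjusted p = 0.0115, or 0.0561 without the variance trend). Ddx58, the RNA sensor RIG-I, had a difference of 0.53 (adjusted p = 0.286), and the adapter Myd88 one of 0.48 (adjusted p = 0.0956, or 0.041 without normal brain replicate 1). Of 12 negative regulators Cish was called higher and 0 were lower, a share of 8.33% that is also near that of all genes. Cish, a suppressor of cytokine signalling, rose by 1.22 (SE 0.31, adjusted p = 0.0275), with 469, 435 and 562 in normal brain and 852, 871, 2033 and 1125 in GL261. Without normal brain replicate 1 or 2 or GL261 replicate 3 or 4 the Cish call was lost (adjusted p = 0.0586, 0.0634, 0.0763 and 0.0662), as it was without the variance trend (0.0833). Socs1, the main brake on interferon signalling, was at a signal of 19.2 to 55.1 in normal brain and 19.9 to 41.3 in GL261. Rnf125, a ubiquitin ligase for RNA sensors, was not called (1.71, adjusted p = 0.158, or 0.047 without normal brain replicate 1).

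Among 56 other interferon-induced genes tested 14 were higher and 0 lower, 25% beside 5.92% of all genes. The 5 with the smallest p were Gbp2, Nampt, Irgm1, Ifi47 and Slfn1. Gbp2, a guanylate-binding GTPase and classical interferon gamma target, was at 720, 866 and 864 in normal brain and at 4645, 3218, 5421 and 4675 in GL261. Its log2 difference of 2.43 (SE 0.19, adjusted p = 8.05e-05) exceeded that of every one of the 39 members. Nampt, an enzyme of NAD salvage that many stimuli induce, rose by 1.49 (adjusted p = 0.000275). The immunity-related GTPase genes Ifi47 and Irgm1 rose by 1.26 and 1.16 (adjusted p = 0.00243 and 0.00136), and Slfn1, a schlafen family gene, by 1.78 (adjusted p = 0.00243). With the mean of all probe sets Slfn1 was at 1.05 and not called (adjusted p = 0.0894). Ifi27 had a lower value in GL261 that was not called (-0.59, adjusted p = 0.0554). It was called lower with a pseudocount of 58 (0.0488), the filter at the 60th percentile (0.041) or quantile normalization (0.0302). Over all 5 lists 16 of 95 genes were called higher and 1 lower, and without GL261 replicate 3 the count was 11 higher and 0 lower.

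**Figure D5:**
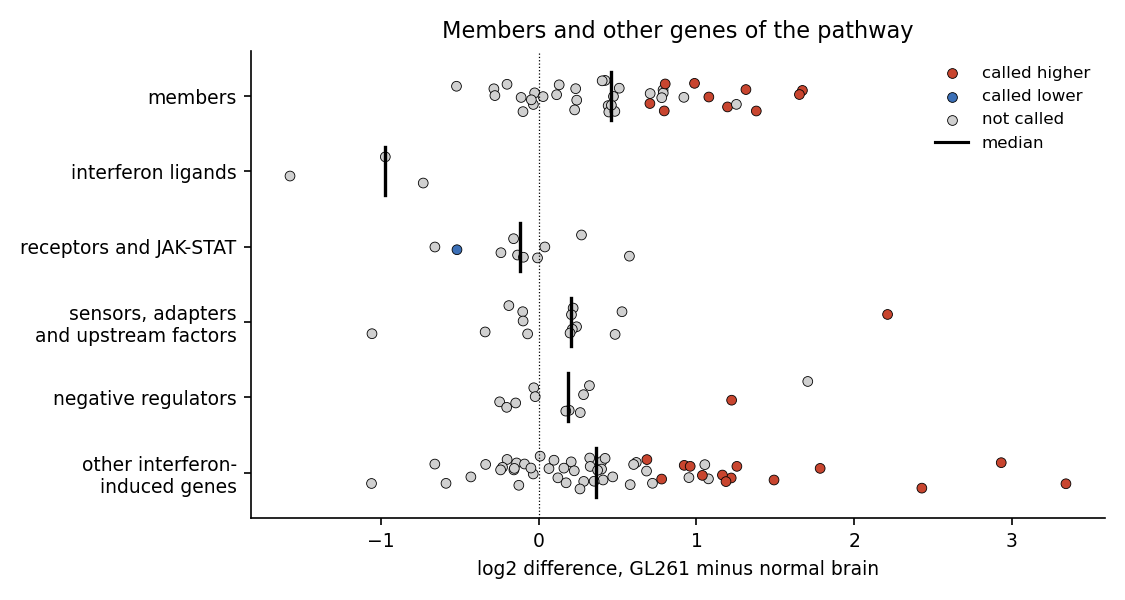
Log2 difference between GL261 and normal brain for the members and for 5 lists of other pathway genes, each point a gene tested, red called higher, blue called lower, grey not called, with a black bar at the median. The only blue point is Ifnar1, and most red points lie among the members and the other interferon-induced genes.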

How the data were processed

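Biotin-labelled cRNA of the sorted macrophages was hybridised to Affymetrix mouse arrays. For each probe set the authors deposited 1 linear signal intensity, computed with MAS5 per the submitters' processing notes. Its version is not given in the sources used here. The trimmed mean signal was 500 on every array, so no further scaling was applied, and 0 value columns belonged to no sample. Of 45101 probe sets 34945 had 1 gene symbol, and all 39 members kept their symbol when matched to RefSeq (GRCm38.p6) by gene ID.

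Before logarithms to base 2 were taken, 6 was added to each signal (the 20th percentile over all arrays), so differences of weak genes come out smaller. Genes were tested when their mean was above 4.93, the 40th percentile, and all 39 members passed. The groups were compared with limma 3.58.1 in R 4.3.3, with variances that follow the mean signal, two-sided, and Benjamini-Hochberg adjustment over 12125 genes. A call is an adjusted p under 0.05. Single array measures were compared by exact permutation. Background was the 95th percentile of 27 Bacillus control probe sets (signal 12.3 to 19.9), and all 39 members were above it on all arrays. Signals of different probe sets are not compared with each other, and the number of arrays limits precision.

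Members and lists were chosen with earlier results of these data known. Values on every array are given for called members, the 3 uncalled members with the largest differences and the 3 with the highest signal, and for others that bear on the same role. Pathway genes named were up to 5 called and 1 uncalled per list, by p, and a fixed set. Alternatives were other pseudocounts, filters, scaling, variance models, array weights, probe set rules, the replicate number as a block and leaving out each array. The fit was tested on simulated data. Python 3.11.15 and matplotlib 3.10.9 drew the figures.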

Additional observations from a re-analysis of the deposited data

Results flagged for a closer look

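In 59 genes examined (the members and the named pathway genes), 3 had 1 GL261 array far from the other 3, measured as the gap to the nearest array over the group's range. Chance gives this in about 1 group in 20. Oas3 was at a signal of 3642 in GL261 replicate 2 and at 1709 to 1862 on the others. Epsti1 was at 2677 in the same array and at 2321 to 2356 on the others. Ifnb1 was at 13.4 in GL261 replicate 3 and at 58.5 to 61.6 on the others.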

How the results depend on the processing

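The members called higher numbered 10, and 8 to 13 across the 18 alternatives apart from 5 with variances that do not follow the mean signal. The members called lower were 0, except for 1 (Ifitm3, -0.37, adjusted p = 0.0461) with the replicate block, where 11 were higher. The block ended the calls of Stat2 (adjusted p = 0.0844) and Ifnar1 (0.11), and with it Oas3 (0.0386) and Cmpk2 (0.0312) were called higher and Ifi27 (0.0348) lower. The labels give the groups the same replicate numbers but no pairing, deviations of same-numbered arrays correlated at 0.0792, -0.0075 and 0.031, and not every array correlated best with its own number. The members' median difference was 0.39 to 0.52 apart from 0.60 with the mean of all probe sets, which brings in weaker probe sets. Pathway genes called numbered 17, but 8, all higher, without the variance trend, and 11 to 18 without 1 array. Pathway genes called lower numbered 2 with a pseudocount of 58, the filter at the 60th percentile or quantile normalization, 0 with no filter, median centring, no variance trend, array weights or every probe set tested, and 0 to 2 without 1 array.

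Genes near 0 changed sign without a call in either direction, and the cause was not tested. With the replicate block Oas2 was 0.14, Mx1 0.10, Dtx3l -0.038 and Ifngr1 0.0032. Quantile normalization gave Trim30a 0.049 and Ifi35 0.12. The mean of all probe sets gave Trim30a 0.0022, Dtx3l -0.071, Ifi35 0.23 and Ifngr2 -0.21, and array weights gave Socs1 0.11. Without 1 array the ranges were -0.32 to 0.14 for Oas2, -0.19 to 0.10 for Mx1, -0.23 to 0.021 for Trim30a, -0.083 to 0.092 for Dtx3l and -0.14 to 0.041 for Ifi35. They were -0.041 to 0.26 for Epsti1, -0.062 to 0.034 for Ifngr1, -0.070 to 0.15 for Ifngr2 and -0.25 to 0.086 for Socs1.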

Other observations

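Among the 14 other interferon-induced genes called higher were 2 chemokine genes of the receptor Cxcr3, which guides T cells, and Cd274, the gene of the checkpoint ligand PD-L1. These genes lie outside the naming rule and were chosen after their values were seen. Cxcl9 had signals of 1270, 897 and 734 in normal brain and 8580, 2376, 11463 and 11745 in GL261 (log2 difference 2.93, SE 0.45, adjusted p = 0.00288 by limma). Its GL261 replicate 2 lay far below the other GL261 arrays and above all normal brain arrays. Cxcl10 was at 2941, 2300 and 2224 in normal brain and at 4412, 4177, 5534 and 4715 in GL261 (0.92, SE 0.16, adjusted p = 0.00525). Cd274 was at 3300.2, 2447 and 2870 in normal brain and at 5650.3, 4841, 6111 and 7047 in GL261 (1.04, SE 0.17, adjusted p = 0.00358). GL261 replicate 2 was again the lowest of its group for both genes.

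GL261 replicate 2 was the lowest GL261 array for 11 of these 14 called genes, and for 24.7% of all genes tested. The 42 uncalled genes of that list are left out of this count. Among them replicate 2 was the highest GL261 array for some, such as Helz2 (1849) and Ube2l6 (620), and the lowest for others, such as Trim21 (2044). Of the 39 members, called and uncalled together, it was the lowest for 4 and the highest for 25, so these counts cover unlike sets. The summed signal of T and NK cell markers on GL261 replicate 2 was 8657, beside 12062 to 15983 on the other GL261 arrays. Its sums for erythroid (4439 against 68.0 to 194), endothelial (1569 against 436 to 669) and B cell markers (1303 against 660 to 872) were the highest of the group. The part of those cells in these values was not tested.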
